A study of Mus musculus with 12 samples.

Results

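Anks1b was read by 7 probe sets on the array, chosen as all those that the platform annotation gives the symbol Anks1b, out of 11868 probe sets that are not controls. The gene itself is 1 of 5928 genes that the array reads under a symbol of their own. Of its 7 probe sets, 5 had a log2 value of at least 4 on each of the 12 arrays and were tested with the 3541 probe sets that reached this level on at least 3 arrays. The other two, 139170_at and 170090_at, stayed below log2 4 on all 12 arrays. The gene was selected on measured values, with its genotype difference in view, so its differences between genotypes are given as a description and support nothing.

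The arrays held hippocampal RNA of mutant mice, which lack CREB and CREM, and of control mice, 1 hour after an intraperitoneal injection of kainate (20 mg/kg), an agonist of glutamate receptors that provokes seizures, or of saline. There were 4 groups of 3 arrays: mutant mice after kainate, mutant mice after saline, control mice after kainate and control mice after saline. The mice were male and female littermates aged 5 to 6 weeks that lived in single cages and were handled for 5 days beforehand, and the RNA of 3 animals was pooled for each array. The sources used here give neither the alleles, nor what drives the deletion, nor the genotype of the controls, so the cells that lost CREB and CREM cannot be named. Values are GCRMA log2 signals, and a difference of -1 on this scale is a signal at 1/2 of the level compared with. In bulk tissue fewer cells of a type and less RNA per cell cannot be told apart.

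Anks1b encodes AIDA-1, an abundant protein of the postsynaptic density, the dense layer of receptors and scaffolds under an excitatory synapse. AIDA-1 has ankyrin repeats, SAM domains and a phosphotyrosine-binding domain, binds the scaffold PSD-95, and takes part in the transport of the NMDA receptor subunit GluN2B to synapses. Neuronal activity can release a fragment of AIDA-1 from the synapse to the nucleus, and the protein also binds the intracellular part of the amyloid precursor protein. CREB and CREM are related transcription factors that bind the cyclic AMP response element, or CRE, and drive genes in response to neuronal activity.

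In the RefSeq annotation of assembly GRCm38.p6 the gene (gene ID 77531) lies on chromosome 10 from 89872915 to 90973300, a span of 1100386 bases with 10 curated and 44 predicted transcripts. RefSeq gives it 5 start windows of 300 bases (250 before a start and 50 after it), all on the plus strand. They fall in 3 places, 703 kb and 253 kb apart, and a window from each place is printed because starts this far apart give transcripts with different first exons. The first of these windows begins after the annotated beginning of the span, 89872915, so that end of the gene was not searched. Capitals mark TGACG, the short core of the CRE, which was searched on both strands together with the full CRE, TGACGTCA; the full CRE holds the core, so a full match counts for both.

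first start, chr10:89873259-89873558: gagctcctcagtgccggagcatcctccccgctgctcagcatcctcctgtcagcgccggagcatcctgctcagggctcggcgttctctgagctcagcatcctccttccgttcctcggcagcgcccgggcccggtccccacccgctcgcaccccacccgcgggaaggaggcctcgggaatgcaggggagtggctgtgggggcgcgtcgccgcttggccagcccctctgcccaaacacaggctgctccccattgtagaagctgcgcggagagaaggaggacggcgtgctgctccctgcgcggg
inner start, chr10:90576441-90576740: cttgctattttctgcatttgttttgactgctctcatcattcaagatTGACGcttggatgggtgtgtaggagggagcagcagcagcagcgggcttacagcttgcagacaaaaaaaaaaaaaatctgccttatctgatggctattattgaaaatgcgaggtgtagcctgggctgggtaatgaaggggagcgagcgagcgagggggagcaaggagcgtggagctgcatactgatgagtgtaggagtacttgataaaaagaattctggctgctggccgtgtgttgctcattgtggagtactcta
last start, chr10:90829404-90829703: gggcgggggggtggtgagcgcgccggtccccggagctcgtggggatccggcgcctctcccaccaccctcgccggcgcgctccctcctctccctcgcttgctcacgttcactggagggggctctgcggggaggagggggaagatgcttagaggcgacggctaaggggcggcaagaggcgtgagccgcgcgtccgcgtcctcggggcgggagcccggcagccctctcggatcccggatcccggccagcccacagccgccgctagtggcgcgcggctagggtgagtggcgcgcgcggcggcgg

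The first and last windows are rich in G and C (70.3% and 76.3%, with 26 and 41 CpG), and the inner window is not (48%, with 8 CpG). The short core occurred once among the 5 windows, in the inner one, starting 204 bases before the start; it occurs in 20.8% of all 32851 RefSeq windows of this length. The full CRE occurred in 0 of the 5 windows and in 1.79% of all windows. A match is only a run of letters, and its absence from a window says nothing of CREB elsewhere in the gene. The files do not give the probe sequences, so no probe set can be assigned to a start or to a transcript.

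Some arrays stood apart in ways that touch Anks1b. On the first principal component, with 53.15% of the variance, mutant kainate replicate 3 was far from the other 11 arrays, and its SD over the probe sets was 1.52, against 1.71 to 1.78 elsewhere. The replicate 1 arrays of all 4 groups had the 4 highest values on the second component (22.9%). The array labelled control kainate replicate 3 read 12.95 for Gfap, a filament gene of astrocytes; the mutant saline arrays read 12.23 to 13.00 and the remaining control kainate arrays 11.51 and 11.53. Mutant kainate replicate 3 read 11.55 for Gfap, below the other mutant arrays. Whether the labels of these 2 replicate 3 arrays are right was not tested; both were used as labelled, so every group value after kainate and every genotype difference after kainate depends on those labels, and the Anks1b differences are also given without them. Signal for Creb1 and Crem, which encode CREB and CREM, was above log2 4 at 1 probe set each, from 4.77 to 5.11 and from 4.37 to 4.83 over the arrays, and neither was lower in mutants (averaged difference 0.09 ± 0.06 and 0.17 ± 0.06, SE); whether these probes lie in the deleted part is not stated, so they do not check the labels.

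Mean Anks1b signal was below the control level in the mutant groups at each of the 5 probe sets above log2 4, and after kainate it was below the saline level in both genotypes. The group means ran in the same order at all 5, lowest in mutant kainate, then mutant saline, control kainate and control saline. The mutant kainate and mutant saline means differed by less than the larger of their SDs at 5 of 5 probe sets. Mutant saline and control kainate means differed by more than the larger SD at 3 of 5, and control kainate and control saline means at 4 of 5.

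Levels of different probe sets cannot be set against each other, since they depend on the probes as well as on the RNA. In the maker's naming the suffix f of 167684_f_at marks probes that match a family of related sequences, so its reading may include other transcripts. 167684_f_at read 9.31, 9.49 and 9.96 in mutant mice after kainate and 9.49, 9.74 and 9.95 in mutant mice after saline, against 10.29, 10.75 and 9.73 in control mice after kainate and 10.56, 11.10 and 10.97 in control mice after saline (replicates 1, 2 and 3). All mutant saline arrays lay below all control saline arrays, and control kainate replicate 3 lay within the mutant range.

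135272_at had the largest genotype difference of the Anks1b probe sets. It read 8.56, 7.79 and 7.77 in mutant mice after kainate and 8.40, 8.01 and 8.26 in mutant mice after saline, against 9.85, 9.13 and 8.23 in control mice after kainate and 9.76, 9.59 and 9.38 in control mice after saline. Apart from control kainate replicate 3, at 8.23, every control array read above every mutant array. Its highest value in each group was on replicate 1.

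166557_f_at, the other probe set with the family suffix, read 6.71, 6.88 and 7.16 in mutant mice after kainate and 6.77, 7.04 and 7.12 in mutant mice after saline, against 7.28, 7.46 and 7.03 in control mice after kainate and 7.28, 8.25 and 7.89 in control mice after saline. As at the first 2 probe sets, control kainate replicate 3 was the only control array inside the mutant range.

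139493_at read 5.80, 5.50 and 6.21 in mutant mice after kainate and 5.84, 6.27 and 6.26 in mutant mice after saline, against 6.57, 6.21 and 5.63 in control mice after kainate and 6.32, 7.09 and 7.38 in control mice after saline. Here 2 control kainate arrays fell inside the mutant range. The control saline arrays were all above the mutant saline arrays, replicate 1 by the least.

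166556_at lay nearest to log2 4. It read 4.06, 4.60 and 4.89 in mutant mice after kainate and 4.44, 4.84 and 4.82 in mutant mice after saline, against 4.75, 4.74 and 4.62 in control mice after kainate and 4.79, 5.45 and 5.65 in control mice after saline. The groups overlapped in both comparisons of genotypes, and control saline replicate 1 lay among the mutant saline arrays.

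The 2 probe sets below log2 4 hardly varied. 139170_at ran from 3.12 to 3.25 over the 6 mutant arrays and from 3.03 to 3.15 over the 6 control arrays, and 170090_at ran from 2.71 to 2.85 and from 2.67 to 2.74 over the same arrays. Their averaged differences, mutant minus control, were 0.05 ± 0.03 each (SE, in a fit over all 11868 probe sets), so the direction seen at the other 5 was not seen where the signal was near the floor. The probe sets just inside and just outside the level of log2 4 were 166556_at, with a mean of 4.80 over the 12 arrays, and 139170_at, with 3.13.

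**Figure D1:**
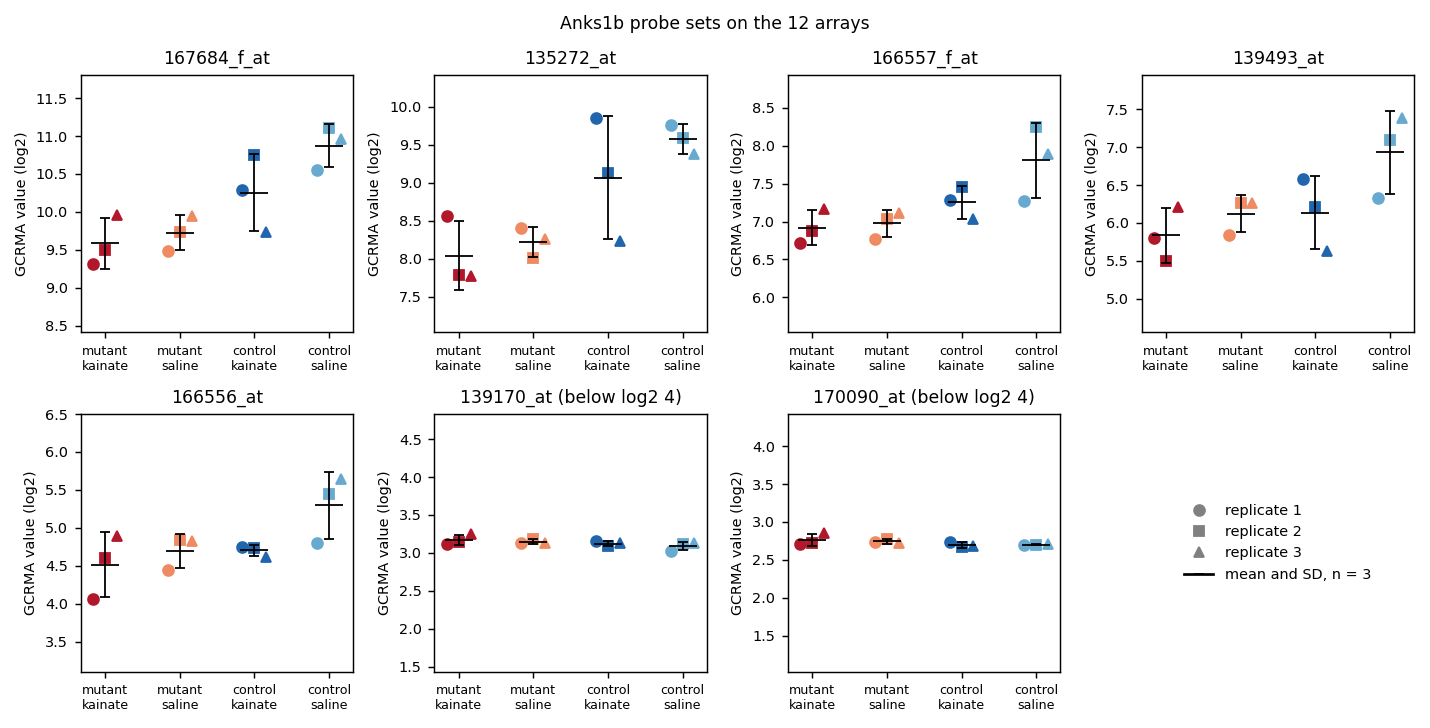
GCRMA log2 values of the 7 Anks1b probe sets on each of the 12 arrays, by group, with the group mean and SD (n = 3 arrays); symbols mark the replicate number and all panels span the same number of log2 units. At 5 probe sets the mutant arrays lie mostly below the control arrays, with control kainate replicate 3 (dark blue triangle) among the mutants, while 139170_at and 170090_at stay flat below log2 4.

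In all 5 tested probe sets, mutant mice read lower than control mice when both treatments were averaged. The difference, mutant minus control, was -1.19 ± 0.26 (SE) for 135272_at, a signal of 43.8% of the control level. It was -0.91 ± 0.19 for 167684_f_at (53.3%). The other probe sets showed smaller differences, -0.58 ± 0.17 for 166557_f_at (66.7%), -0.56 ± 0.23 for 139493_at (68.0%) and -0.39 ± 0.18 for 166556_at (76.2%). Over all 3541 tested probe sets the median difference was -0.01, and 51.1% were lower in mutants; in the order from the lowest difference the 5 stood at places 8, 28, 162, 205 and 474. With limma's test over all 12 arrays 0 of the 5 passed an adjusted p of 0.05, as did 0 (0%) of the 3541, of which 677 had an unadjusted p under 0.05. The sizes differ among probe sets that carry the same symbol, and since their probes cannot be placed on transcripts it was not tested whether they read different transcripts.

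**Figure D2:**
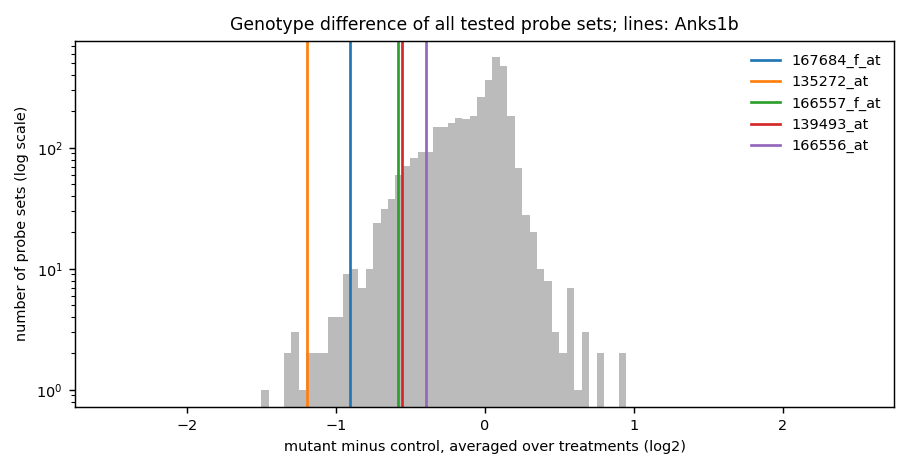
Number of tested probe sets (log scale) by averaged genotype difference, mutant minus control in log2 units, for all 3541 (grey), with lines at the 5 tested Anks1b probe sets. The lines lie between -1.19 and -0.39, all left of the median of -0.01.

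After saline the difference between genotypes was larger than after kainate at every tested probe set, and this gap, the interaction of genotype and kainate, passed at none. After saline it was -1.35 ± 0.37 (SE) for 135272_at, which averaged 8.22 ± 0.20 in mutant mice and 9.58 ± 0.20 in control mice (SD, n = 3 arrays each). For 167684_f_at it was -1.15 ± 0.27, with 9.73 ± 0.23 in mutant mice and 10.88 ± 0.29 in control mice. The remaining 3 had differences of -0.83 ± 0.24 (166557_f_at), -0.81 ± 0.32 (139493_at) and -0.60 ± 0.25 (166556_at). All mutant saline arrays lay below all control saline arrays at 4 of the 5, all but 166556_at, against 5.11% of the 3541 tested. No probe set of the 3541 (0%) passed the threshold in this comparison, and 428 had an unadjusted p under 0.05.

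After kainate the difference was -1.03 ± 0.37 for 135272_at, with 8.04 ± 0.45 in mutant mice and 9.07 ± 0.81 in control mice (SD, n = 3 arrays each). It was -0.67 ± 0.27 for 167684_f_at, -0.34 ± 0.24 for 166557_f_at, -0.30 ± 0.32 for 139493_at and -0.19 ± 0.25 for 166556_at. In replicate 3 mutant minus control was -0.46 for 135272_at but 0.23, 0.14, 0.58 and 0.27 for 167684_f_at, 166557_f_at, 139493_at and 166556_at. Replicates 1 and 2 gave -1.29 and -1.34 for 135272_at, -0.98 and -1.26 for 167684_f_at, -0.57 and -0.58 for 166557_f_at, -0.78 and -0.71 for 139493_at, and -0.70 and -0.14 for 166556_at. With control kainate replicate 3 and mutant kainate replicate 3 left out, the difference after kainate was -1.31 for 135272_at, -1.12 for 167684_f_at, -0.57 for 166557_f_at, -0.75 for 139493_at and -0.42 for 166556_at. Mutant kainate arrays lay wholly below control kainate arrays at 0 of the 5, against 3.78% of the array, and 0 of 3541 (0%) passed the threshold, 167 of them with an unadjusted p under 0.05. All 6 mutant arrays lay below all 6 control arrays at 0 of the 5 (0.339% of the array).

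With control kainate replicate 3 and mutant kainate replicate 3 both left out, the averaged difference was -1.33 for 135272_at, -1.13 for 167684_f_at, -0.78 for 139493_at, -0.70 for 166557_f_at and -0.51 for 166556_at. Leaving out a control array that reads like the mutants enlarges the difference by construction, so nothing is read from this gain. The 5 mutant arrays then lay below the 5 control arrays at 135272_at, 166557_f_at and 167684_f_at (3 of 5, against 1.36% of the array). With a term for replicate 1 as well, 135272_at and 167684_f_at passed the threshold in the averaged comparison, where 0.734% of the array was called lower, and after saline, where 0.169% was. After kainate 167684_f_at alone passed, where 0.113% was called lower. Without the term for replicate 1, no Anks1b probe set passed in any comparison of genotypes.

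**Figure D3:**
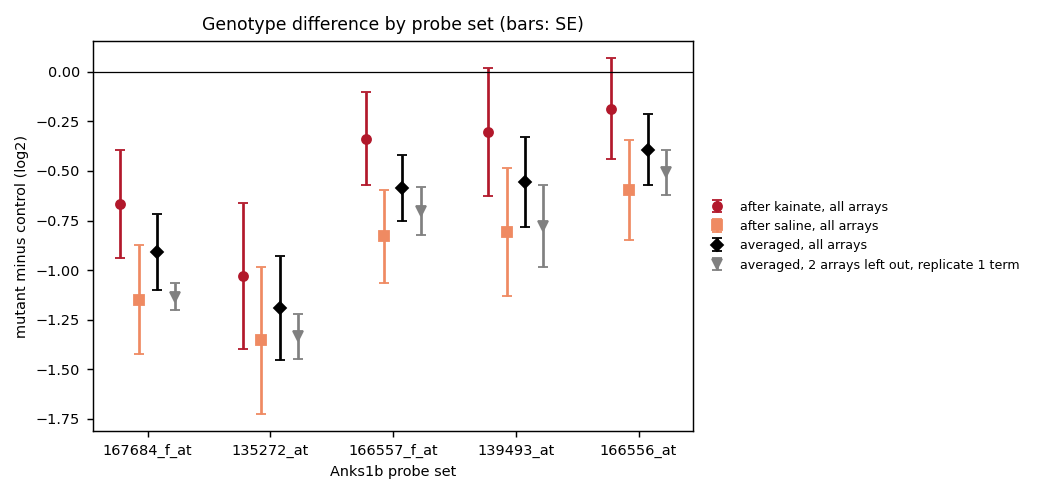
Genotype difference, mutant minus control in log2 units, at the 5 tested Anks1b probe sets, with SE bars from the limma fit: after kainate, after saline, averaged over both, and averaged without control kainate 3 and mutant kainate 3 and with a term for replicate 1. All points lie below 0, and the saline points lie below the kainate points at each probe set.

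Kainate minus saline averaged over genotypes was not a comparison that chose the gene, and no Anks1b probe set passed it. Within each genotype kainate minus saline shares its saline arrays with the genotype difference after saline, so it is not free of the choice of the gene. Averaged over genotypes the difference was -0.54 ± 0.23 (SE; 95% interval -1.05 to -0.03) for 139493_at, with an adjusted p of 0.416 from limma over the 3541 probe sets. For 166556_at it was -0.39 ± 0.18 (-0.79 to 0.01, adjusted p 0.466), and for 167684_f_at -0.38 ± 0.19 (-0.81 to 0.05, adjusted p 0.505). 135272_at gave -0.35 ± 0.26 (-0.93 to 0.24, adjusted p 0.681) and 166557_f_at -0.30 ± 0.17 (-0.68 to 0.07, adjusted p 0.535). The array as a whole had 5 called probe sets (0.141%), all higher after kainate, and 68.4% of all tested probe sets read lower after kainate, with a median of -0.04. Without control kainate 3 and mutant kainate 3 the averaged kainate difference was -0.07 for 135272_at, -0.51 for 139493_at, -0.46 for 166556_at, -0.34 for 167684_f_at and -0.31 for 166557_f_at, so 135272_at alone lost most of its size.

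Within replicate 1 the averaged kainate difference was 0.13 for 135272_at, 0.10 for 139493_at, -0.03 for 166557_f_at, -0.21 for 166556_at and -0.23 for 167684_f_at. Within replicates 2 and 3 it was -0.58, -0.86, -0.44, -0.48 and -0.46 for the same probe sets in the same order. At 135272_at and 139493_at the lower reading after kainate was seen in replicates 2 and 3 and not in replicate 1, and this difference between replicates was not tested.

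In mutant mice alone the kainate difference was small at all 5 probe sets, between -0.29 ± 0.32 (139493_at) and -0.06 ± 0.24 (166557_f_at), with adjusted p from 0.728 to 0.939. Mutant kainate arrays lay below all mutant saline arrays at 0 of the 5 (8.44% of the array), and 1 of 3541 (0.0282%) was called. In control mice the difference was -0.80 ± 0.32 for 139493_at, -0.62 ± 0.27 for 167684_f_at, -0.59 ± 0.25 for 166556_at, -0.55 ± 0.24 for 166557_f_at and -0.51 ± 0.37 for 135272_at. The adjusted p was 1 for each, 4 of the 5 had an unadjusted p under 0.05, as had 158 of the 3541, and 1 of 3541 (0.0282%) was called. Only 166556_at had all control kainate arrays below all control saline arrays (4.63% of the array).

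These control values share their kainate arrays with the genotype difference after kainate and their saline arrays with the genotype difference after saline. They are therefore independent of neither, and the gene was chosen with its genotype difference in view. Control kainate minus control saline was -1.14 for 135272_at, -1.24 for 167684_f_at, -1.75 for 139493_at, -0.86 for 166557_f_at and -1.03 for 166556_at in replicate 3. In replicate 2 it was -0.47, -0.36, -0.89, -0.79 and -0.71 for the same probe sets in the same order, and in replicate 1 it was 0.09, -0.27, 0.25, 0.00 and -0.04. Replicates 2 and 3 were thus lower after kainate at all 5 probe sets, and replicate 1 at 2 of the 5. Without control kainate 3 and mutant kainate 3 the control difference was -0.09 ± 0.29 for 135272_at, -0.36 ± 0.21 for 167684_f_at, -0.54 ± 0.31 for 139493_at, -0.44 ± 0.26 for 166557_f_at and -0.55 ± 0.27 for 166556_at, each with an adjusted p of 0.995.

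**Figure D4:**
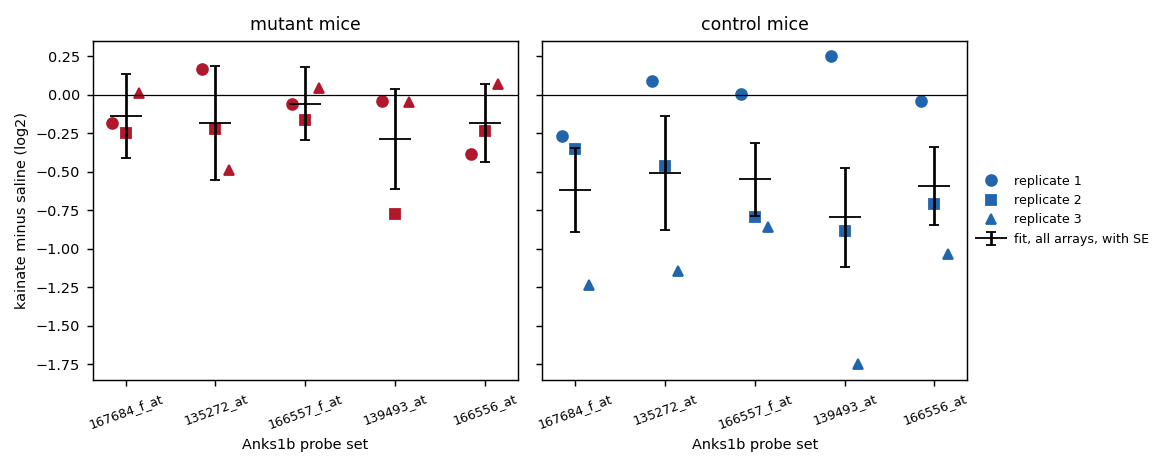
Kainate minus saline in log2 units at the 5 tested Anks1b probe sets, for mutant mice (left) and control mice (right); symbols are same-numbered replicates and the bars give the fitted difference with its SE over all arrays. In control mice replicate 3 lies lowest at every probe set, from -1.75 to -0.86, and replicate 1 lies between -0.27 and 0.25.

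The interaction, the kainate difference in mutants minus that in controls, was positive at all 5 probe sets and passed at none. It is also the genotype difference after kainate minus that after saline, so its sign is not free of the choice of the gene. It was 0.51 ± 0.46 (95% interval -0.52 to 1.53) for 139493_at, 0.49 ± 0.33 (-0.26 to 1.24) for 166557_f_at, 0.48 ± 0.39 (-0.39 to 1.35) for 167684_f_at, 0.41 ± 0.36 (-0.39 to 1.22) for 166556_at and 0.33 ± 0.52 (-0.85 to 1.5) for 135272_at. The adjusted p was 0.973 for each, and 0 of 3541 probe sets (0%) passed, 31 of them with an unadjusted p under 0.05. The intervals leave room for a kainate difference that is the same in both genotypes and for one that differs by over 1 log2 unit. Without control kainate 3 and mutant kainate 3 the values were between 0.03 (167684_f_at) and 0.26 (166557_f_at).

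The Anks1b probe sets fell into 4 that varied together between replicates and 1, 135272_at, that did not. Replicate 1 read higher than the mean of replicates 2 and 3 at 135272_at in all 4 groups, by 0.62 on average. At the other 4 replicate 1 was higher in 1 of the 4 groups only, and on average it read lower by values of -0.19 (139493_at), -0.30 (167684_f_at), -0.34 (166557_f_at) and -0.44 (166556_at). Over the 12 arrays, deviations from the group means correlated at 0.69 to 0.84 in the 6 pairs among these 4 probe sets, and at -0.38 to 0.28 in the 4 pairs with 135272_at. With each replicate number centred on its own mean, which keeps the groups and takes out the replicate shift, the ranges were 0.86 to 0.95 and 0.80 to 0.96. These correlations are a description: the points share their arrays and normalization, and probe sets with the family suffix may share sequence.

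**Figure D5:**
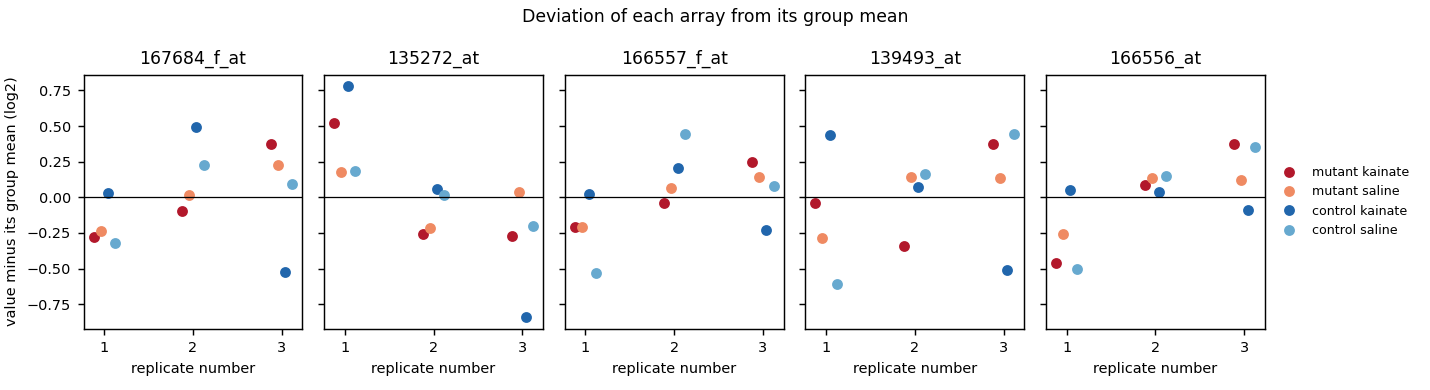
Deviation of each array from its group mean in log2 units, by replicate number, at the 5 tested Anks1b probe sets; colours are the 4 groups. At 135272_at the replicate 1 points of all 4 groups lie above 0, between 0.18 and 0.78, while at the other probe sets most replicate 1 points lie below 0.

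Other genes followed the pattern of Anks1b across the 12 arrays, by Pearson's r after each replicate number was centred on its own mean. Among 3540 other probe sets, those most like 167684_f_at were of Slc25a16, a mitochondrial carrier (r = 0.988), Gpr101, an orphan receptor (0.964), Gm2115 (0.955), Fbll1, a fibrillarin-like gene (0.936), and Sstr4, a somatostatin receptor (0.933). By the same measure 135272_at stood at place 3, 166557_f_at at 5, 139493_at at 23 and 166556_at at 24. Those most like 135272_at were of Gm2115 (0.977), Sstr4 (0.977), Mogs, a glucosidase of glycoprotein folding (0.964), Rprml (0.961) and Fam43b (0.956), and 167684_f_at stood at place 5. This measure keeps the genotype difference in. That averaged difference was -1.34 ± 0.30 (SE) for Mogs, -1.18 ± 0.28 for Gm2115, -1.02 ± 0.26 for Fbll1, -0.88 ± 0.28 for Gpr101, -0.82 ± 0.20 for Sstr4, -0.66 ± 0.26 for Slc25a16, -0.47 ± 0.20 for Rprml and -0.41 ± 0.40 for Fam43b. With deviations from group means, which take out the differences between the labelled groups, Mogs (0.960), Rprml (0.954) and Gm2115 (0.935) were still among the 5 genes most like 135272_at. Egr3 (0.937) and Slc25a16 (0.934) were the others. The largest of these deviations at 135272_at, -0.84, was that of control kainate replicate 3, which read within the mutant range. For 167684_f_at the 5 genes were then Fras1 (0.913), Rsad1 (0.847), Tango6 (0.844), Appl1 (0.842) and Gpr101 (0.807). Of its earlier 5 only Gpr101 remained. By the same deviations 135272_at stood at place 1228 in likeness to 167684_f_at, while 166557_f_at stood at 6, 139493_at at 27 and 166556_at at 46.

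Genes near Anks1b were little covered. Gm4184, a pseudogene inside the gene, was read by 1 probe set with a mean of 2.23 over the 12 arrays, below the level tested. The pseudogenes Gm5780 and Gm18670, which also lie inside it, and the neighbours Gm46238 before it and Apaf1, a gene of the apoptosome, after it matched no probe set.

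Genes of the same protein family and of the synapse were compared by lists. Of 11 genes that encode proteins with SAM domains, most of them also with ankyrin repeats, 5 were on the array; besides Anks1b only Caskin1, a scaffold that binds CASK, was above the level tested, with an averaged genotype difference of -0.07 ± 0.14 (SE). Of 17 genes for partners and cargo of AIDA-1, 4 were on the array and 2 were tested. Grin2b, which encodes GluN2B, gave -0.66 ± 0.95 and ranged from 5.50 to 9.27 over the mutant arrays and from 5.97 to 9.43 over the control arrays. Kpna6, an importin, gave -0.42 ± 0.32. In the fit without control kainate 3 and mutant kainate 3 and with the term for replicate 1, these values were -0.54 for Grin2b and -0.14 for Kpna6.

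Of 34 genes for scaffolds of the postsynaptic density, 10 were on the array and 6 were tested. All 6 read lower in mutants, as did 51.1% of all tested probe sets, and 0 passed. Their median was -0.32 against -0.01 for all tested probe sets. The lists take each gene's brightest probe set, so they are not matched in signal to all tested probe sets. Whether the shift is particular to these lists was not tested. In the fit without the 2 replicate 3 arrays and with the term for replicate 1 the median was -0.23, and Begain, at 0.01, was no longer lower. All tested probe sets had a median of 0.03 in that fit, and 41.8% of them were lower. The largest differences were -0.42 ± 0.37 for Kalrn, -0.33 ± 0.10 for Baiap2, an actin regulator of spines, and -0.33 ± 0.19 for Dclk1, a kinase that binds microtubules. Of 20 genes for ionotropic glutamate receptors and their auxiliary subunits, 5 were tested, and all 5 read lower, with a median of -0.20 and none past the threshold. Besides Grin2b these included Grik3, a kainate receptor subunit (-0.36 ± 0.28), and Grin3a, an NMDA receptor subunit (-0.20 ± 0.21). In the fit without the 2 replicate 3 arrays and with the term for replicate 1 the median was -0.10, beside 0.03 for all tested probe sets. Grik3 was then at -0.17 and Grin3a at 0.01.

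Of 18 genes for messengers from synapse to nucleus 2 were tested, the CREB co-activators Crtc1 (0.25 ± 0.16) and Crtc3 (-0.16 ± 0.10). For kainate against saline, 0 members of any of the 11 lists passed, against 0.141% of the array. Among these lists the scaffolds had a median kainate difference of -0.09 and the glutamate receptors one of -0.18, each beside -0.04 for all tested probe sets.

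Markers of cell types were given beside Anks1b because in bulk tissue fewer cells of a type and less RNA per cell cannot be told apart. Whether the Anks1b signal follows the share of neurons in the tissue was not tested. Excitatory neurons were present by Nrgn, a calmodulin-binding protein of pyramidal and granule cells, which ranged from 11.53 to 12.43 over the mutant arrays and from 11.56 to 12.55 over the control arrays (averaged difference -0.11 ± 0.23). Slc17a7, the vesicular glutamate transporter of these cells, gave -0.10 ± 0.20. In the fit without control kainate 3 and mutant kainate 3 and with the term for replicate 1 these were -0.01 for Nrgn and 0.11 for Slc17a7. The other two neuron markers on the array were below log2 4. The summed signal of the 2 tested neuron markers ran from 11.62 to 12.52 in mutant kainate, from 11.66 to 12.36 in mutant saline, from 12.17 to 12.47 in control kainate and from 11.67 to 12.61 in control saline. These ranges overlap.

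Gfap moved with genotype in the opposite direction to Anks1b, with a difference of 0.94 ± 0.35 that did not pass the threshold over all arrays. It read 12.82, 13.03 and 11.55 in mutant kainate and 13.00, 12.47 and 12.23 in mutant saline, against 11.51, 11.53 and 12.95 in control kainate and 11.59, 10.75 and 11.13 in control saline. Mutant kainate 3 was the lowest mutant array and control kainate 3 the highest control array. For Anks1b, control kainate 3 lay in the mutant range at 135272_at, 167684_f_at and 166557_f_at. No mutant array, mutant kainate 3 included, reached the other 5 control arrays at these probe sets. At 166556_at mutant kainate 3 read 4.89, above control saline 1 (4.79) and every control kainate array. At 139493_at it read 6.212, above control kainate 2 (6.208) and control kainate 3 (5.629). Without control kainate 3 and mutant kainate 3 and with the term for replicate 1 the Gfap difference was 1.41 and passed (limma, adjusted p 0.0208). These arrays were doubted partly for their Gfap values. Leaving them out enlarges the Gfap difference by construction, so nothing is read from this pass. Over all arrays the other tested astrocyte markers had differences of -0.34 ± 0.95 (Slc1a2), -0.07 ± 0.13 (Apoe) and -0.07 ± 0.06 (Pla2g7). In the fit that gave 1.41 for Gfap, Slc1a2 was at -0.245, Apoe at -0.098 and Pla2g7 at -0.067, and none of them passed. On the array 3 of the 7 astrocyte markers were below log2 4. The summed astrocyte signal, mostly Gfap, ran from 11.62 to 13.06 in mutant kainate, from 12.27 to 13.01 in mutant saline, from 11.53 to 13.00 in control kainate and from 10.87 to 11.62 in control saline. The part of the astrocyte signal in the Anks1b differences was not tested.

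The remaining cell types gave no called marker over all arrays. Laptm5 led the 3 tested microglia markers with 0.25 ± 0.28, and Cx3cr1 and P2ry12 gave 0.01 ± 0.37 and 0.04 ± 0.07. Without control kainate 3 and mutant kainate 3 and with the term for replicate 1, Laptm5 gave 0.64 and passed (limma, adjusted p 0.0488). Cx3cr1 and P2ry12 gave 0.157 and 0.102 in that fit, and neither passed. Pvalb and Vip, the tested interneuron markers, gave -0.53 ± 0.48 and -0.32 ± 0.31, the oligodendrocyte markers Ermn and Olig1 gave -0.24 ± 0.15 and -0.13 ± 0.16, and the endothelial marker Flt1 gave -0.33 ± 0.27. In the fit that gave 0.64 for Laptm5 these were -0.15 for Pvalb, 0.04 for Vip, -0.08 for Ermn, 0.03 for Olig1 and -0.08 for Flt1. RNA quality, taken as the signal at the 3′ end of the actin control minus that at the 5′ end, was 1.61, 2.30 and 2.44 in mutant kainate and 2.00, 1.83 and 1.74 in mutant saline, against 1.77, 2.27 and 2.20 in control kainate and 1.92, 1.82 and 1.74 in control saline. The 4 highest values, 2.20 to 2.44, were those of replicates 2 and 3 after kainate in both genotypes. In control mice these replicates read lower for Anks1b after kainate at all 5 probe sets; in mutant mice replicate 2 did, and replicate 3 read 0.07, 0.05 and 0.01 above saline at 166556_at, 166557_f_at and 167684_f_at. The part of RNA quality in these readings was not tested.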

How the data were processed

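The deposited table holds GCRMA log2 signals of 12 Affymetrix murine U74 C arrays, made by the authors in R 2.4.1, per the submitters' processing notes; the GCRMA version is not given there. Biotinylated cRNA was hybridised. Symbols are those of the platform annotation; positions and promoters are from RefSeq (GRCm38.p6). The 66 control probe sets were left out, and of 11868 others the 3541 with log2 of at least 4 on at least 3 arrays were tested. R 4.3.3 and limma 3.58.1 (lmFit, contrasts.fit, eBayes) fitted 4 group means to all arrays, with 8 residual degrees of freedom and no block; 7 comparisons were adjusted by Benjamini-Hochberg over 3541 at a threshold of 0.05. The method was tested on simulated data that had the same spread at every probe set, no replicate shift and no outlying array. That test does not cover these features of the real arrays. The highest correlation between arrays was 0.9975, so no array was a copy of another; p-values reflect pools, not animals, and 3 arrays per group limit precision.

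Every Anks1b probe set is given. Other genes named are the 5 most like 2 Anks1b probe sets, its neighbours, and up to 3 members of each of 11 lists with the largest averaged genotype difference, at the gene's brightest probe set; further marker genes, Creb1 and Crem were named after their values were seen. The members and lists were chosen with earlier results of these data known. Same-numbered arrays correlated in their deviations from group means at 0.855, 0.47 and 0.482 (genotype after saline), 0.578, 0.333 and 0.19 (genotype after kainate), 0.627, 0.383 and 0.458 (kainate in controls) and 0.479, 0.0448 and -0.0779 (kainate in mutants). In deviations from a mean of 3 arrays, a shift shared by the replicate 1 arrays also moves replicates 2 and 3 together. The correlation of these deviations between arrays with different numbers was not calculated, so these values cannot decide whether the numbers pair the arrays. Alternatives were the dim filter, a replicate block, a term for replicate 1, quantile normalization, a trended robust variance, only the arrays compared, and leaving out arrays.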

Additional observations from a re-analysis of the deposited data

How the results depend on the processing

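Each of the 5 tested Anks1b probe sets kept its direction for the averaged genotype difference in all 99 alternative values (-1.401 to -0.276), for the saline difference in all 104, and for kainate averaged (99) and in controls (104). Only leaving out control kainate 3 and mutant kainate 3 together with a term for replicate 1 took any past the threshold: averaged, 135272_at at -1.33 and 167684_f_at at -1.13 (2 probe sets); after saline, the same at -1.35 and -1.15 (2); after kainate, 167684_f_at at -1.12 (1). Fewer arrays and a smaller residual spread come with that setting by construction. The averaged genotype comparison then called 29 of the array, against 0 over all arrays, 5 without these arrays alone, and 0 to 2 when any one array was left out, 2 without control kainate 3 and 1 without mutant kainate 1. Kainate averaged called 5 over all arrays, 9 after quantile normalization, 9 without these arrays, 20 with the term as well, and 5 to 56 when any one array was left out, 56 without mutant kainate 1 and 11 without mutant kainate 3. After quantile normalization the genotype difference after kainate turned to 0.058 for 139493_at and 0.056 for 166557_f_at, and kainate in mutants to 0.115 for 135272_at, 0.016 for 139493_at, 0.243 for 166557_f_at and 0.022 for 167684_f_at; the cause was not tested. With any one array left out, the genotype difference after kainate ran from -0.373 to 0.044 for 166556_at. Kainate in mutants ran from -0.37 to 0.047 for 166556_at, from -0.181 to 0.045 for 166557_f_at and from -0.327 to 0.001 for 167684_f_at, each turned without mutant kainate 1, 166557_f_at also without mutant saline 3. The interaction of 135272_at ran from -0.10 to 0.72, turned without control kainate 3.

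With the replicate block the differences are the same and no Anks1b call changed. For the averaged genotype difference of 135272_at, -1.19, the SE was 0.19 in place of 0.26. The block called 2 probe sets of the array for kainate in mutants and 3 in controls, against 1 in each without it.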
